A study of Rattus norvegicus with 24 samples.

Results

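Paced mating was examined in ovariectomized (OVX) rats primed with estradiol, on the 6 arrays of the series whose treatment label is OVX, out of 24 arrays in all. Arrays OVX-1, OVX-3 and OVX-5 are labelled paced, and arrays OVX-2, OVX-4 and OVX-6 are labelled chamber-exposed. The rats were Long–Evans females of 50 to 60 days. All of them, chamber-exposed rats included, had their ovaries removed and received 10 µg of estradiol benzoate under the skin 44 h before the test, which took place 10 days after surgery. Their adrenal glands were left in place. Paced rats could come and go between a male and an empty side of the apparatus for 15 min. The yoked chamber-exposed rats met only the clean apparatus. The study reported less lordosis, fewer solicitations and more defensive aggression in OVX rats than in intact proestrous rats, so the mating itself was not alike. The brain was removed directly after the test, midbrain was dissected from it, and RNA was hybridised to Affymetrix rat expression arrays, with 3 rats for each condition. The question for this experiment was whether the mating difference in the midbrain transcriptome also arises without ovaries.

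The midbrain holds dopamine neurons of the ventral tegmental area and substantia nigra, which take part in motivated behaviour, and in rodents it is a site at which progesterone metabolites act to support lordosis. The choroid plexus is a different tissue, an epithelium with a vascular core that hangs in the brain's ventricles, secretes cerebrospinal fluid and forms the barrier between blood and that fluid. It is joined to the brain by a thin stalk, so the amount that stays with a dissected block can vary. On an array of bulk tissue, fewer cells of a type and less RNA per cell cannot be told apart.

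Signals are given as deposited, on a log2 scale, on which 1 unit is a 2-fold change. A difference is the mean of the paced arrays minus the mean of the chamber-exposed arrays. The arrays were alike in range, with lowest signals of 2.31 to 2.39 and median signals of 7.08 to 7.13. Pearson's r between arrays ran from 0.9833 to 0.9947 over the 27035 probe sets kept. The median r was 0.9909 over the 6 pairs with the same label and 0.9924 over the 9 pairs with different labels. The first principal component held 39.8% of the variance and separated OVX-1 from OVX-6, with scores of −31.1 and 29.8, while the third, with 17.8%, set OVX-3 apart at 23.5. The 3′ control probe sets for beta-actin and Gapdh differed by −0.06 and −0.00, the middle ones by −0.11 and −0.00, and the 5′ ones by −0.24 and −0.04. The SD of the 5′ beta-actin probe set was 0.23 on the paced and 0.40 on the chamber-exposed arrays.

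The tissue label was checked against markers that define regions. The 11 measured genes of the midbrain dopamine neuron list were not uniform. Th, tyrosine hydroxylase, was at percentile 71.2 of all probe sets on OVX-4 and between percentiles 30.2 and 37.7 on the other 5 arrays. Slc6a3, the dopamine transporter, was at percentile 77 on OVX-4 and between percentiles 24.7 and 33.7 elsewhere. Pitx3, a transcription factor of these neurons, stayed between percentiles 8.61 and 12.6 on all 6 arrays. Other members were higher, with Ddc, the decarboxylase after Th, between percentiles 56.1 and 70, and with Nr4a2, an orphan nuclear receptor, and Aldh1a1, an aldehyde dehydrogenase, above percentile 80 on all 6 arrays. Both are also expressed in other brain regions. Forebrain genes were high at the same time. Camk2a, a kinase of excitatory forebrain synapses, lay between percentiles 99.2 and 99.7, Slc17a7, the vesicular glutamate transporter of cortex and hippocampus, between 95.7 and 99.3, and Neurod6, a transcription factor of cortical neurons, between 86.6 and 94.6. On the arrays of ovariectomized and adrenalectomized rats, whose signals follow another overall distribution, Th lay between percentiles 82.2 and 94.3 and Slc17a7 between 52.4 and 72.5. Pitx3 was low there too, between percentiles 15.6 and 17.9. On the arrays of intact rats named Intact in their titles, Th lay between percentiles 29.8 and 51.4 and Slc17a7 between 92.8 and 98.8. Th and Slc6a3 were thus low on 5 of the 6 OVX arrays and Pitx3 on all 6, and the tissue is called here by its label.

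The content of a region or cell type on an array was taken as the median, over the genes of a marker list, of the signal minus that gene's median over the 6 OVX arrays. Choroid plexus content was −0.18, −0.96 and −0.39 on the paced arrays OVX-1, OVX-3 and OVX-5, and 0.50, 0.15 and 0.42 on the chamber-exposed arrays OVX-2, OVX-4 and OVX-6. The summed linear signal of the list ran from 8605 to 31013 on the paced arrays and from 37383 to 44420 on the chamber-exposed arrays. All paced arrays lay below all chamber-exposed arrays, so choroid plexus content and the mating label cannot be told apart on these 6 arrays. The content of several other regions varied between arrays, and that of cerebellum was set by 1 array. Cerebellum content was 1.53 on OVX-1 and between −0.05 and 0.04 on the other 5. Thalamus content was 0.73 on OVX-5, 0.48 on OVX-4, −0.53 on OVX-1 and −0.98 on OVX-6. The summed linear signal of the thalamus list was 13146, 12283, 12415 and 3361 on these arrays, so the measures ranked OVX-1 differently. Content of midbrain dopamine neurons was 0.41 on OVX-4 and −0.19 on OVX-6, and content of cortex and hippocampus was 0.36 on OVX-6 and −0.35 on OVX-1. Content of hippocampal fields leaned with the label, at −0.33, −0.15 and −0.03 on the paced arrays and −0.07, 0.07 and 0.26 on the chamber-exposed arrays, which overlapped. Striatum content was 0.29, 0.00 and 0.07 against 0.12, −0.16 and −0.16 and overlapped as well.

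**Figure D1:**
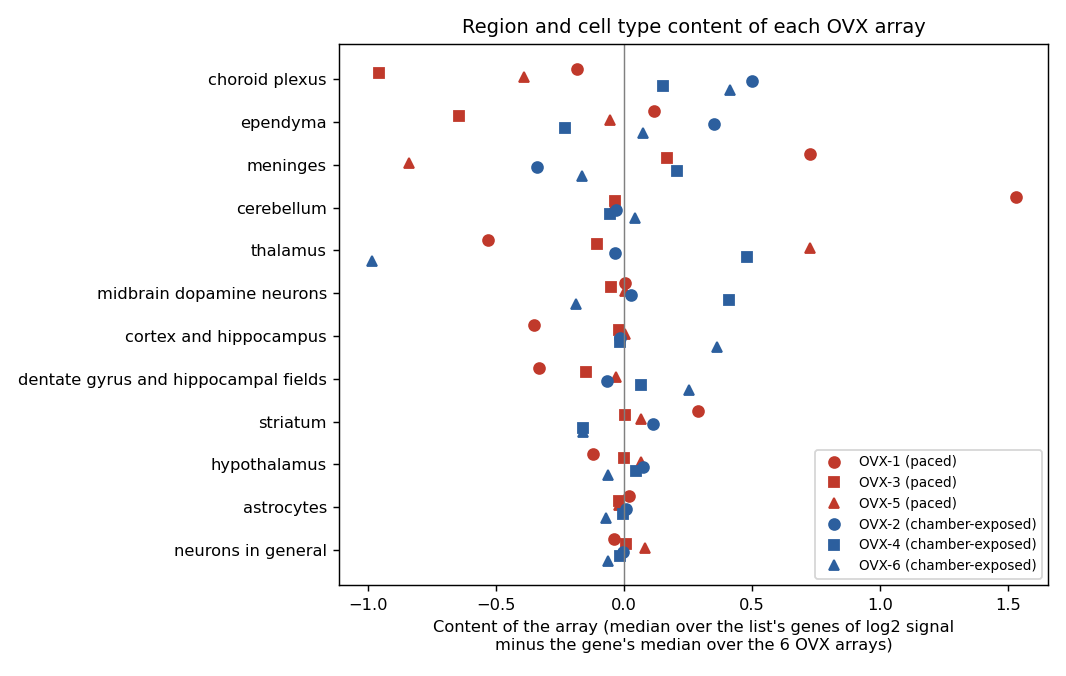
Content of 12 marker lists on each OVX array, as the median over the list's genes of log2 signal minus the gene's median over the 6 arrays (x axis). Red symbols are paced and blue symbols chamber-exposed rats. In the choroid plexus row the red symbols, from −0.96 to −0.18, lie left of all blue ones, from 0.15 to 0.50, while OVX-1 stands alone at 1.53 in the cerebellum row.

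Across all genes, no difference between paced and chamber-exposed OVX rats passed the test. Of 27035 probe sets, 0 (0%) reached an adjusted p below 0.05 with limma and Benjamini-Hochberg adjustment, and the smallest adjusted p was 0.776. At an unadjusted p below 0.05 there were 654 probe sets, 236 higher and 418 lower on the paced arrays. The study's own kind of test, without moderation of the variance, also called 0, with 707 at an unadjusted p below 0.05. Of these, 20 differed by over 2-fold, and all 20 were lower on the paced arrays. The precision was limited by the number of rats: the 95% interval of a difference reached 0.24 to either side at the median probe set and 0.42 at the 90th percentile. A missed threshold therefore does not show that paced and chamber-exposed rats were alike.

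Taking 1 probe set for each of 13081 genes, 202 genes (1.54%) were lower and 114 (0.871%) higher on the paced arrays at an unadjusted p below 0.05. The signals of the groups did not overlap for 426 genes (3.26%) that were lower and 414 (3.16%) that were higher on the paced arrays, so non-overlap alone was about as frequent in both directions. The large differences were not balanced. Over 2-fold, 22 genes were lower and 7 higher on the paced arrays, and 11 of the 22 belong to the choroid plexus list. The median difference of all genes was 0.01.

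**Figure D2:**
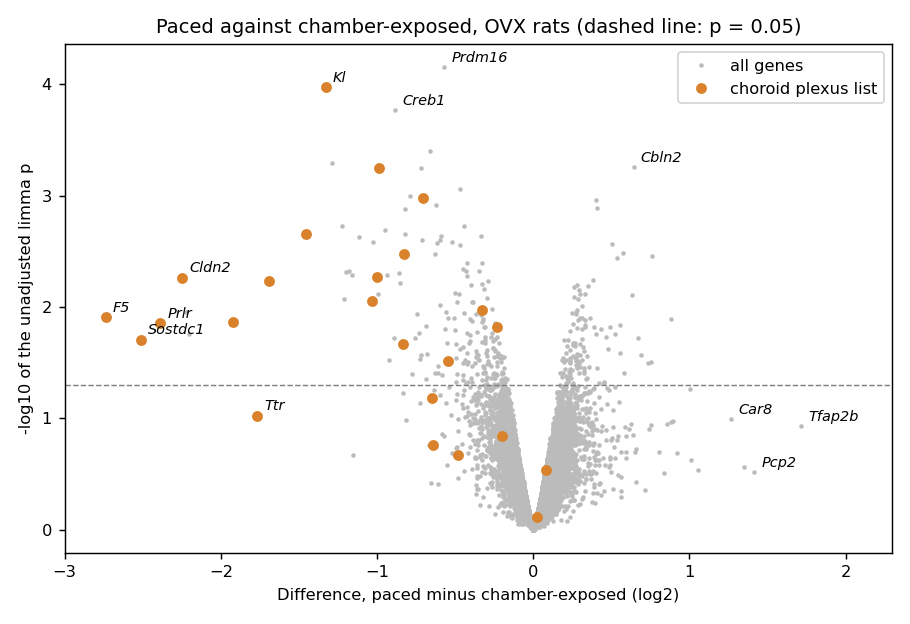
Difference between paced and chamber-exposed OVX rats (x axis, log2) against −log10 of the unadjusted limma p (y axis) for 13081 genes, each 1 point, with the choroid plexus list in orange. The orange points reach −2.74, and 22 of 24 lie left of 0. No gene passed after adjustment.

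Choroid plexus genes were lower as a group on the paced arrays. Of the 27 genes listed, 24 were measured, and 17 of them were lower at an unadjusted p below 0.05, against 1.54% of all genes, while 0 were higher. That count was 10 in the study's kind of test without moderation, and 5 with the spread taken over the 6 OVX and 6 Intact arrays. The groups did not overlap for 18 that were lower and for 1 that was higher, against 3.26% and 3.16% of all genes. Of the 24, 22 had a negative difference, against 6051 of all 13081 genes. The median difference was −0.91, against 0.01 for all genes. None of the 24 passed limma's test after adjustment, the smallest adjusted p being 0.776. The listed genes share a tissue and an array, so they do not count as separate pieces of evidence.

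Among the genes of the choroid epithelium's hormonal and secreted factors, Kl had the smallest p. Kl encodes klotho, the coreceptor for an endocrine fibroblast growth factor, which the choroid plexus also sheds into the cerebrospinal fluid. Its signal was 5.07, 4.53 and 4.98 on OVX-1, OVX-3 and OVX-5, and 6.26, 5.93 and 6.38 on OVX-2, OVX-4 and OVX-6. Every paced array was low and every chamber-exposed array high, and the groups did not overlap. The difference was −1.33 ± 0.17 (SE), with a 95% interval from −1.74 to −0.92, an unadjusted p of 0.000106 and limma's adjusted p of 0.776. Ttr, transthyretin, the thyroid hormone carrier that the choroid plexus secretes, read 13.98, 10.22 and 13.82 on the paced arrays and 14.45, 14.34 and 14.53 on the chamber-exposed arrays. OVX-3 was far below all others, and the remaining paced arrays were just below the chamber-exposed ones. The difference of −1.77 ± 0.92 had an interval from −3.93 to 0.40, and without OVX-3 it was −0.54.

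The receptor and barrier genes showed larger differences. Prlr, the prolactin receptor, read 7.65, 5.22 and 7.89 on the paced arrays and 9.32, 8.44 and 10.16 on the chamber-exposed arrays, a difference of −2.39 ± 0.74 that was −1.54 without OVX-3. The other probe sets of Prlr differed by −1.52 ± 0.43 and −0.60 ± 0.17. Cldn2, a tight junction claudin of leaky epithelia, read 6.64, 4.26 and 6.29 against 8.23, 7.65 and 8.05, a difference of −2.25 ± 0.57. In both genes all paced arrays were below all chamber-exposed arrays, and OVX-3 was the lowest. Folr1, the folate receptor that carries folate into the cerebrospinal fluid, differed by −1.69 ± 0.44, and Slco1a5, an organic anion transporter, by −1.92 ± 0.59, or −1.18 without OVX-3. Kcne2, a potassium channel subunit at the epithelium's apical side, differed by −0.70 ± 0.13, and its second probe set by −1.20 ± 0.18. Aqp1, the water channel of the same membrane, differed by −0.33 ± 0.10, from 7.31 to 7.62 on the paced arrays and from 7.77 to 7.85 on the chamber-exposed arrays, and its second probe set by −1.53 ± 0.37.

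The largest difference of any gene was that of F5, coagulation factor V. F5 read 8.28, 4.97 and 8.11 on the paced arrays and 10.19, 9.39 and 9.98 on the chamber-exposed arrays, which is 6.67-fold lower on the paced arrays. Sostdc1, a secreted inhibitor of BMP and Wnt signals, read 9.43, 5.95 and 9.13 against 10.85, 10.39 and 10.81, which is 5.71-fold lower. Both rested in part on OVX-3, and without that array the differences were −1.66 and −1.40. The groups did not overlap in either gene.

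Other listed genes had smaller differences of the same sign. Col8a1, a short-chain collagen, differed by −1.46 ± 0.31, Calml4, a calmodulin-like protein, by −1.03 ± 0.29, and Enpp2, the lysophospholipase D autotaxin, by −0.83 ± 0.19. Steap1, a metalloreductase, was lower with a 95% interval from −1.60 to −0.40. The homeobox gene Msx1 differed by −0.83 ± 0.28, or −0.51 without OVX-3. The homeobox gene Otx2, which specifies choroid plexus, differed by −0.64 with an interval from −1.64 to 0.36, and its groups overlapped, since the paced array OVX-1 at 8.97 matched the chamber-exposed array OVX-2 at 8.95. Igf2, a growth factor of choroid plexus and meninges, also overlapped, with a difference of −0.48 ± 0.35, and its other 3 probe sets differed by 0.02 to 0.06. Car12, a carbonic anhydrase, and Rdh5, a retinol dehydrogenase, differed by 0.08 and 0.02.

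**Figure D3:**
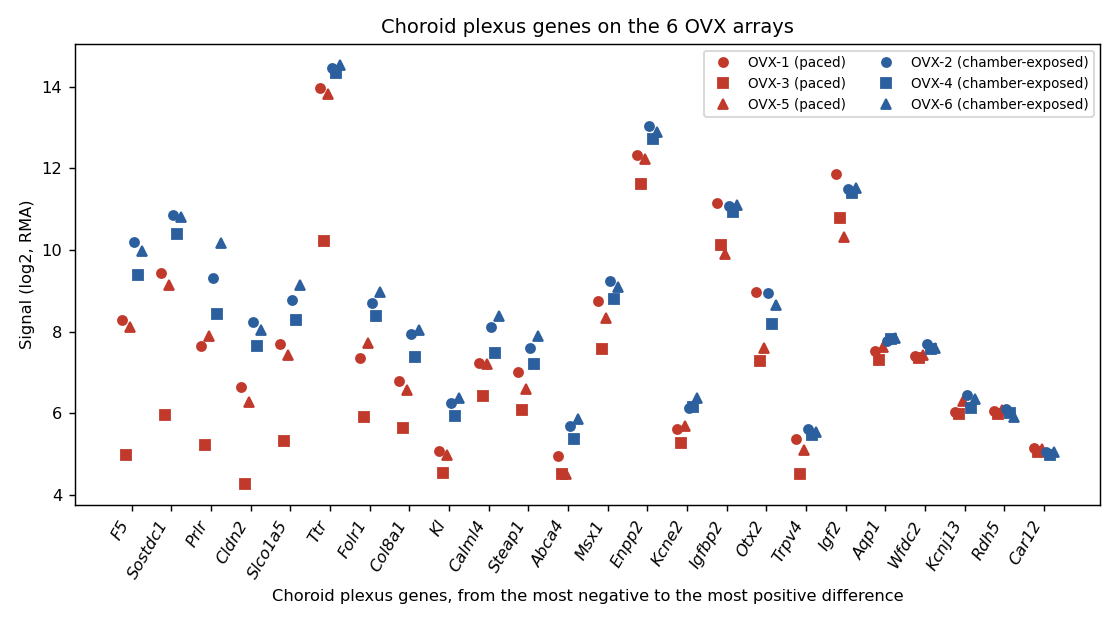
Log2 signal (y axis) of the 24 measured choroid plexus genes (x axis) on each OVX array, paced in red and chamber-exposed in blue. In 18 genes all red symbols lie below all blue ones, and OVX-3 is the lowest array for most genes, as at 10.22 for Ttr.

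Abca4 and Kl, the listed genes with the smallest p-values at 1 probe set a gene, are shown with the bases just before their starts, because both were lower on every paced array than on any chamber-exposed array. Abca4, a lipid transporter best known from photoreceptors, read 4.96, 4.52 and 4.50 on the paced arrays and 5.69, 5.38 and 5.87 on the chamber-exposed arrays, a difference of −0.99 ± 0.17. No paced array reached the level of a chamber-exposed one. The sequences are the 250 bases upstream of the RefSeq start on build GRCr8, both on the plus strand, with Abca4 at chr2:212849235-212849484 and Kl at chr12:5325753-5326002. Capitals mark TAATCC or its reverse complement GGATTA, the core letters bound by OTX2 and related homeobox factors, searched on both strands.
Abca4: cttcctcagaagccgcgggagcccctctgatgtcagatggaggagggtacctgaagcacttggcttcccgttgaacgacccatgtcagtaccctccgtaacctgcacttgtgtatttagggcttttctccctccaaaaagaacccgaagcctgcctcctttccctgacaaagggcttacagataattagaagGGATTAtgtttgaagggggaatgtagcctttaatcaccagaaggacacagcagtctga
Kl: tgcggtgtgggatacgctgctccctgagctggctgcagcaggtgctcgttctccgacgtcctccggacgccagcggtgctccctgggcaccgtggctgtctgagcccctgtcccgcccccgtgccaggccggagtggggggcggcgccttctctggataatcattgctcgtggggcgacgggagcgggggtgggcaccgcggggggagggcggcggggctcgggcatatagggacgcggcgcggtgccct
Of the 24 listed genes, 18 had a promoter in the RefSeq table, and Abca4 was the 1 gene of these with the letters, while 6.34% of all 33469 promoters of this length held them. A match is a description of the letters and not a binding site, and its absence says nothing about the factor.

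Genes outside the list also separated the labels. Cltrn, collectrin, an amino acid transporter partner related to the angiotensin-converting enzyme family, read 5.71, 3.06 and 5.29 on the paced arrays and 7.07, 6.33 and 7.32 on the chamber-exposed arrays. Mfrp, a frizzled-related membrane protein, read 8.33, 5.57 and 8.21 against 10.03, 8.94 and 9.75. Both were lowest on OVX-3, like most choroid plexus genes, and their differences were −2.22 ± 0.66 and −2.21 ± 0.72, or −1.41 and −1.30 without OVX-3. Ace, the angiotensin-converting enzyme, differed by −0.82 ± 0.16 and by −1.17 ± 0.29 at a second probe set, Cox8b, a subunit of cytochrome c oxidase, by −1.29 ± 0.22, and Scgb1c1, a secretoglobin, by −1.22 ± 0.26. Choroid plexus content, from −0.96 to −0.18 on the paced and from 0.15 to 0.50 on the chamber-exposed arrays, was also lower on every paced array, so its part in these differences and that of mating cannot be told apart.

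The smallest p of any named gene was that of Prdm16, a zinc finger transcription factor. Its signal was 6.83, 6.76 and 6.81 on the paced arrays and 7.41, 7.33 and 7.37 on the chamber-exposed arrays. The spread within each group was under 0.1, and the groups did not overlap. The difference was −0.57 ± 0.07, with an unadjusted p of 6.98e-05 and limma's adjusted p of 0.776, and a second probe set differed by −0.79 ± 0.15. Nr2f2, the nuclear receptor COUP-TFII, read from 9.27 to 9.68 on the paced arrays and from 9.96 to 10.18 on the chamber-exposed arrays, a difference of −0.62 ± 0.12. Xcl1, a chemokine, differed by −0.66 ± 0.11 at signals from 3.96 to 4.84, near the low end of the arrays, and Synpo2l, an actin-associated protein of muscle, by −0.72 ± 0.12. The probe sets of Creb1, the cAMP-response transcription factor, disagreed, with differences of −0.88 ± 0.12 and 0.02 ± 0.08.

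The genes higher on the paced arrays had smaller differences. Cbln2, a secreted organizer of synapses, read 9.22, 9.19 and 9.21 on the paced arrays and 8.62, 8.73 and 8.34 on the chamber-exposed arrays. The paced arrays were nearly equal and all above the chamber-exposed ones, with a difference of 0.64 ± 0.11 and limma's adjusted p of 0.955. A second probe set of Cbln2 differed by 0.47 ± 0.10. Olfm3, an olfactomedin of neurons, differed by 0.51 ± 0.11, Cdhr1, a cadherin first known from photoreceptors, by 0.57 ± 0.13, and Lin7a, a synaptic scaffold protein, by 0.63 ± 0.17. Pf4, a platelet chemokine, read 8.03, 7.63 and 7.27 on the paced arrays and 6.84, 6.87 and 6.94 on the chamber-exposed arrays, a difference of 0.76 ± 0.18. Sorcs1, a sorting receptor of neurons, differed by 0.55 ± 0.17, and Grm4, a metabotropic glutamate receptor, by 0.69 ± 0.25. Of the 6 arrays, OVX-6 was the lowest for Cbln2, Olfm3, Cdhr1, Sorcs1 and Grm4, and without it Sorcs1 differed by 0.35 and Grm4 by 0.43. Matcap1, a tubulin carboxypeptidase, differed by 0.54 ± 0.13, and Cnmd, chondromodulin, by 0.88 ± 0.27, or 0.58 without OVX-5.

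Several genes with large differences were set by 1 array. Pcp2, a Purkinje cell protein, read 10.35 on OVX-1 and between 5.25 and 6.02 on the other 5 arrays. Gabra6, the GABA receptor subunit of cerebellar granule cells, read 8.18 on OVX-1 and between 4.48 and 4.93 elsewhere, and En2, a homeobox gene of midbrain and cerebellum, read 9.05 against 5.54 to 7.23. Car8, a Purkinje cell protein related to carbonic anhydrases, read 10.32 on OVX-1 and 6.81 to 7.85 on the others. These genes rank among the largest differences upward, at 1.41 for Pcp2 and 1.27 for Car8, yet without OVX-1 the differences were −0.28 for Pcp2 and 0.41 for Car8. Tfap2b, a transcription factor of the AP-2 family, had the largest difference upward, 1.72, but read 9.24, 7.18 and 5.04 on the 3 paced arrays, and the groups overlapped.

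Thalamus and dopamine genes varied in the same way. Shox2, a homeobox gene of thalamic relay neurons, read 3.69 on OVX-6 and between 7.51 and 8.43 on the other arrays. Tcf7l2, a transcription factor high in thalamus, read 9.08 on OVX-6 and between 11.29 and 12.35 elsewhere. The chamber-exposed array OVX-6 thus stood apart on its own, and it also had the highest Slc17a7, 12.87 against 11.21 to 11.97. Slc6a3 read 9.03 on OVX-4 and between 5.38 and 6.01 on the others, which gave a difference of −1.16 ± 0.84 that was −0.04 without OVX-4, and its second probe set differed by −0.13. The part of cerebellum and thalamus content in the differences of other genes was not tested.

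**Figure D4:**
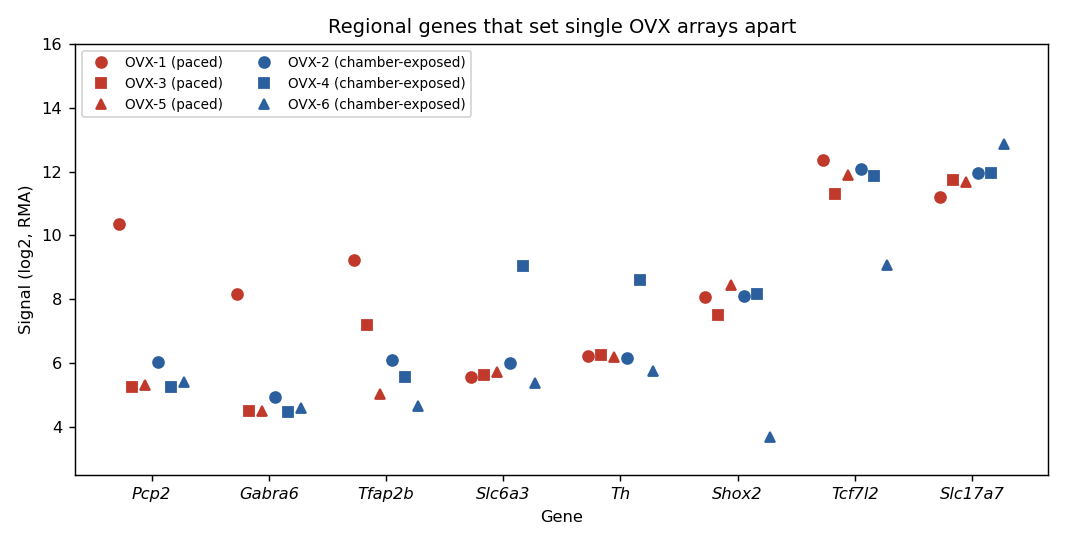
Log2 signal (y axis) of 8 regional genes (x axis) on each OVX array, paced in red and chamber-exposed in blue. Single symbols stand away from the other 5: OVX-1 at 10.35 for Pcp2, OVX-4 at 9.03 for Slc6a3 and OVX-6 at 3.69 for Shox2.

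Lists of other cell types and regions showed few differences. The 7 cerebellum genes had a median of 0.88, set by OVX-1. All 11 striatum genes had a positive difference, with a median of 0.22 and 0 at an unadjusted p below 0.05. Of all 13081 genes, 6963 had a positive and 6051 a negative difference. Ependyma, the ciliated lining of the ventricles, had 7 of 8 genes with a negative difference, a median of −0.22, and 0 at an unadjusted p below 0.05. Its content was −0.64 on OVX-3, the array with the lowest choroid plexus content, and 0.35 on OVX-2, the array with the highest. The groups overlapped, with ependyma content of −0.23 on the chamber-exposed OVX-4 and of 0.12 and −0.05 on the paced OVX-1 and OVX-5. The median of this list ranged from −0.40 to 0.03 when 1 array was left out. Meninges had a median of 0.15 over 15 genes, with content of 0.73 on OVX-1 and −0.84 on OVX-5. All 15 endothelium and pericyte genes had a positive difference, with a median of 0.16, and 1 of them, Flt1, a receptor for vascular endothelial growth factor, was higher at an unadjusted p below 0.05 (0.25 ± 0.07), against 0.871% of all genes. The other probe sets of Flt1 differed by −0.01 and −0.02. Astrocytes, microglia, myelin and neurons in general had medians between 0.04 and 0.13, with 0 genes at that level in either direction. Of the 12 cortex and hippocampus genes, Slc17a7 (−0.72 ± 0.27) and Icam5, a dendritic adhesion molecule (−0.45 ± 0.18), were lower at that level, and of the 5 hippocampal field genes, Dsp, desmoplakin (−0.43 ± 0.10), and Fibcd1 (−0.73 ± 0.24), against 1.54% of all genes. The second probe set of Dsp differed by −0.07. Without OVX-6 the differences were −0.42 for Slc17a7, −0.29 for Icam5 and −0.48 for Fibcd1.

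Genes that respond to neuronal activity did not separate the groups. Of 21 immediate early genes, 0 reached an unadjusted p below 0.05 in either direction, and their median difference was 0.04. Fos, the activity marker most used after mating, read 11.21, 10.75 and 10.87 on the paced arrays and 11.10, 10.24 and 9.62 on the chamber-exposed arrays. The groups overlapped, since OVX-2 was above 2 of the 3 paced arrays, and the difference of 0.62 had an interval from −0.19 to 1.43. A second probe set of Fos differed by −0.01 ± 0.14. Egr1, a zinc finger factor, differed by 0.22 with an interval from −0.06 to 0.51, Arc, a synaptic protein induced by activity, by 0.37 ± 0.37, and Nr4a3, an orphan nuclear receptor, by −0.48 ± 0.26, with other probe sets at −0.37 and 0.23. The 14 glucocorticoid-responsive genes also had 0 at that level, with a median of −0.06 and Fkbp5, a chaperone of the glucocorticoid receptor, at −0.15 ± 0.19.

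Steroid genes were close to even. Of 16 genes of steroid synthesis and metabolism, 0 reached an unadjusted p below 0.05. Cyp19a1, aromatase, which makes estradiol, differed by −0.48 with an interval from −1.15 to 0.18, and Tspo, a mitochondrial protein linked to cholesterol import, by −0.27 with an interval from −0.57 to 0.03. Cyp11a1, which makes pregnenolone, differed by −0.07 ± 0.12. Of 15 receptor genes, Paqr5, a membrane progestin receptor, was lower at that level, against 1.54% of all genes. Paqr5 read 6.59, 6.24 and 6.56 on the paced arrays and 6.93, 6.83 and 6.81 on the chamber-exposed arrays. The groups did not overlap, and the difference was −0.39 ± 0.11 with limma's adjusted p of 1. Nr1i2, the pregnane X receptor, differed by −0.04 ± 0.10 near the low end of the arrays, and Pgr, the progesterone receptor, by 0.09 ± 0.26. The 12 estrogen-responsive genes had a median of 0.05.

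Transmitter genes gave single entries. Of 17 genes of GABA signalling, the receptor subunits Gabra5 (−0.39 ± 0.16) and Gabrg1 (−0.33 ± 0.14) were lower at an unadjusted p below 0.05, against 1.54% of all genes, and Gabrg1 was at −0.20 without OVX-6. Of 23 glutamate genes, Grm4 was higher and Slc17a7 lower at that level, against 0.871% and 1.54% of all genes. Among 11 genes of dopamine signalling, 11 of oxytocin, vasopressin and opioid signalling, 20 of trophic factors and their receptors, 11 of MHC class II, 12 of heat shock and 17 potassium channel genes, 0 reached that level in either direction. Of 14 interferon response genes, Rsad2 (0.27 ± 0.08) and Irf7 (0.23 ± 0.09) were higher and Mx1 (−0.61 ± 0.24) was lower at that level, against 0.871% and 1.54% of all genes.

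None of the pituitary hormones and other genes central to the study passed limma's adjusted test. Gh1, growth hormone, read 6.03, 5.77 and 5.94 on the paced arrays and 6.08, 6.01 and 5.79 on the chamber-exposed arrays. The groups overlapped, with a difference of −0.04 and a 95% interval, from the same fit, between −0.30 and 0.21. Fshb, Lhb, Tshb and Cga, which encode the subunits of the gonadotropins and thyrotropin, differed by 0.07, 0.07, −0.07 and −0.09. By qPCR, a different measure, the study reported higher Lhb and Tshb in mated rats, taking rats with and without ovaries or adrenal glands together. Its qPCR means for the OVX rats were also higher in mated rats for both genes, with no separate test given for that group. The array differences of 0.07 and −0.07 do not show this. For Gnrhr, which encodes the GnRH receptor of gonadotropes, the difference was −0.31 with an interval from −0.71 to 0.08, and −0.09 at its second probe set. Prl, prolactin, read from 3.29 to 3.36 on the paced arrays and from 3.43 to 3.59 on the chamber-exposed arrays, without overlap, at a median percentile of 3.96 among all probe sets, so its difference of −0.19 ± 0.08 lies among signals of genes with little or no RNA. Klk1b3, a kallikrein, and S100g, a calcium-binding protein, differed by −0.03 and 0.01, at median percentiles of 9.28 and 7.7. Tshb and Cga were also low, at median percentiles of 4.05 and 15.6. Small differences at such low signals cannot show that these genes lacked a mating difference. Of 44 genes measured from the study's table of mating genes, which the study chose on arrays of intact rats, 2 were lower and 0 higher at an unadjusted p below 0.05. The shares of all genes were 1.54% and 0.871%, and the median difference of the 44 genes was 0.00. The other of the 2, beside Prl, was Plagl1, a zinc finger gene, at −0.92 ± 0.34.

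The mating difference in OVX rats was compared with that in 6 arrays of intact, proestrous rats named Intact in their titles, 3 paced and 3 chamber-exposed. Those arrays cover the same range of signals as the OVX arrays. The titles of the Intact arrays begin with different numbers, whose meaning the labels do not give. The study describes surgery and estradiol priming for the OVX rats and neither for intact rats, and it reports different mating behaviour. Ovarian status, surgery, priming, mating behaviour and whatever those numbers mark therefore cannot be told apart. Of 27035 probe sets, 2 (0.0074%) had a difference of the mating differences at an adjusted p below 0.05 with limma, and 1341 had an unadjusted p below 0.05. Both probe sets carry no gene symbol and were nearly level across the OVX arrays. Probe set 1394620_at read 5.82 to 6.11 on the OVX arrays, 5.92 ± 0.10 (SD) on the paced Intact arrays and 8.09 to 8.23 on the chamber-exposed Intact arrays. Probe set 1396858_at read 5.80 to 6.27 on the OVX arrays and 7.16 to 7.45 on the chamber-exposed Intact arrays. The differences between the mating differences, 2.29 ± 0.13 and 1.62 ± 0.19, were therefore set by the intact rats. The call of 1396858_at was lost when OVX-2, OVX-3, OVX-4, OVX-5 or OVX-6 was left out.

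Choroid plexus content on the Intact arrays did not follow the mating label. It was 0.82, −1.25 and −1.07 on the paced arrays Intact-1, Intact-3 and Intact-5 and 0.26, −0.96 and −0.50 on the chamber-exposed arrays Intact-2, Intact-4 and Intact-6. The range over these arrays, 2.07, was wider than the 1.46 over the OVX arrays. The median mating difference of the 24 listed genes was −0.05 in these intact rats. The mating difference in OVX rats minus that in intact rats was negative for 21 of 24 listed genes, against 7852 of all 13081 genes. It was negative at an unadjusted p below 0.05 for Kcne2 (−0.67) and Aqp1 (−0.43), as it was for 2.31% of all genes. No listed gene passed after adjustment, the smallest adjusted p with limma being 0.869. A difference in the choroid plexus genes between the mating effects of OVX and intact rats was thus not established at this spread.

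**Figure D5:**
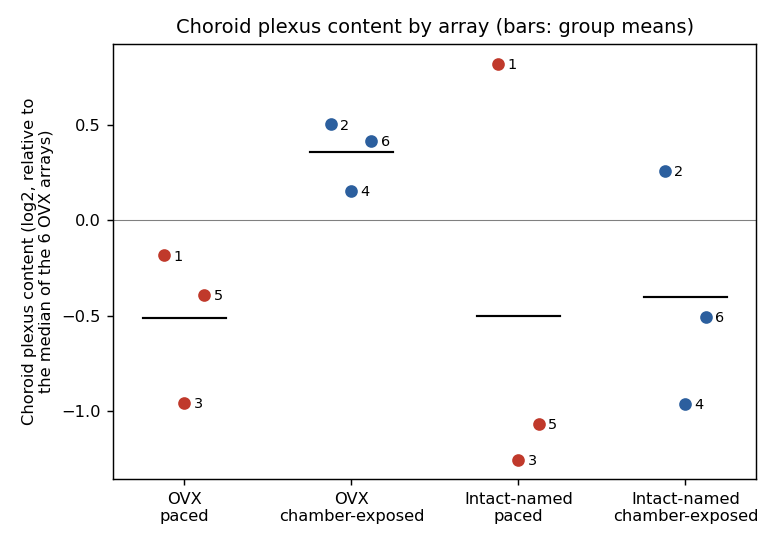
Choroid plexus content (y axis, log2, relative to the median of the 6 OVX arrays) on each OVX and Intact array, with the array number beside each point and bars at group means. The paced OVX points, −0.96 to −0.18, lie below the chamber-exposed OVX points, 0.15 to 0.50, while the Intact points, from −1.25 to 0.82, mix.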

How the data were processed

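Midbrain RNA of single rats was hybridised to Affymetrix Rat Genome 230 2.0 arrays. The authors deposited log2 signals. The submitters' processing notes name RMA and Expression Console 1.4, whereas the study's methods name GCRMA in GeneSpring, whose values were not analysed here. RMA brings probe intensities of arrays processed together to a common distribution, so signals compare within a gene across arrays, and small signals are compressed. Of 31099 probe sets, 57 were controls. A probe set was kept if its signal reached its array's 20th percentile on 3 or more of the 24 arrays, which left 27035. Of all probe sets, 20832 carry 1 gene symbol, 436 several and 9831 none. A gene is represented by the probe set with the highest mean over the 6 OVX arrays.

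Paced and chamber-exposed arrays were compared in R 4.3.3 with limma 3.58.1 (lmFit, then eBayes). Benjamini-Hochberg adjustment covered all probe sets kept, at a threshold of 0.05. The mating differences of OVX and intact rats were compared in 1 fit of 4 groups. An exact two-sided permutation test of 3 against 3 cannot go below p = 0.1, so single genes were judged by the limma fit. The 36 gene lists, the rule for named genes and the 6 arrays were chosen with earlier results of these data known. The rule takes the 12 smallest p-values per direction with a difference of at least 0.5, the 6 largest differences per direction without overlap, the 15 most variable genes, genes the study names, up to 4 members per list, the 6 highest members of the choroid plexus and region lists, and the 6 smallest p-values of the comparison with intact rats. Th, Pitx3, Arc, Cyp11a1, Nr1i2 and Pgr lie outside this rule and were named for their roles after their values were seen, as were the unnamed probe sets at the end. The limma fits were tested on simulated data. Probe sets were named from the platform's annotation. The arrays' number limits the precision, and p-values measure the spread between rats. The alternatives were other filters, normalizations, variance models, array content as a term, and leaving out each OVX array. The choroid plexus counts under these alternatives were added after the data were seen.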

Additional observations from a re-analysis of the deposited data

Results flagged for a closer look

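At 2 probe sets without a gene symbol, the mating difference was not the same in OVX rats as in the intact rats whose arrays are named Intact. For 1394620_at, the mating difference in OVX rats exceeded that in intact rats by 2.29 ± 0.13 (adjusted p = 4.23e-05 with limma). For 1396858_at it did so by 1.62 ± 0.19 (adjusted p = 0.0336 with limma), a call lost when OVX-2, OVX-3, OVX-4, OVX-5 or OVX-6 was left out. The OVX rats differed by 0.07 (1394620_at) and 0.14 (1396858_at), and the intact rats by −2.22 and −1.48, with the chamber-exposed intact rats high in all 3 arrays of each.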

How the results depend on the processing

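In the OVX comparison, 0 probe sets were called under any of the 19 alternatives, the study's test with and without a 2-fold filter counted separately, with 351 to 1264 at an unadjusted p below 0.05 over the alternatives that kept all arrays and 480 to 1058 when 1 array was left out. The count of choroid plexus genes lower at an unadjusted p below 0.05 was 17 and became 10 in the study's test without moderation, 5 with the spread taken over 12 arrays and 1 with choroid plexus content as a covariate. That covariate is built from the same genes and does not overlap between the labels, so the fit cannot separate the content from mating. Leaving out 1 array gave 14 to 21. The count without overlap, which cannot fall when an array is left out, was 18 to 21. The list's median difference of −0.91 ranged from −1.15 to −0.59 when 1 array was left out, and was −0.59 without OVX-3. Of 215 genes from the rule for named genes and the choroid plexus list, 49 changed sign with choroid plexus content as a covariate. With cortex and hippocampus content 37 did so, and with midbrain dopamine neuron content 5. The called probe sets in the comparison with intact rats were 2 under every filter, normalization and variance setting and 1 to 3 when 1 OVX array was left out. Probe set 1396858_at lost its call without OVX-2, OVX-3, OVX-4, OVX-5 or OVX-6, in turn, and 1394620_at kept its call each time. No Intact array was left out, although the Intact arrays set both differences, so their dependence on single Intact arrays was not tested. No paired analysis was possible because the paced and chamber-exposed arrays share no replicate numbers. The 6 arrays limit the precision, and probe sets near the low end of the signals respond little to a change in RNA.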

Other observations

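Probe sets without a gene symbol also separated the labels. Probe set 1396420_at read 6.74, 6.69 and 6.59 on the paced arrays and 6.03, 5.92 and 5.99 on the chamber-exposed arrays, the smallest p of all probe sets, with a difference of 0.69 ± 0.08 (adjusted p = 0.776 with limma). Probe set 1373628_at read 6.82, 5.72 and 6.55 against 8.28, 7.87 and 8.22, with the paced array OVX-3 lowest as in the choroid plexus genes, a difference of −1.76 ± 0.27. Probe set 1377946_at differed by −0.58 ± 0.08.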
